A study of Rattus norvegicus with 40 samples.

Results

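Kidney gene expression of SHRSP/Izm rats was compared with that of WKY/Izm rats while both strains received the same antihypertensive drug. SHRSP/Izm is the stroke-prone spontaneously hypertensive rat and WKY/Izm is the normotensive Wistar-Kyoto rat. All rats were male and 16 weeks old. The comparison used the 24 arrays, of 40 in the series, whose compound was 1 of 6 drugs, with 12 SHRSP arrays and 12 WKY arrays. Each strain had 2 arrays per drug: enalapril at 20 mg/kg/day, candesartan at 5 mg/kg/day, chlorothiazide at 20 mg/kg/day, carvedilol at 50 mg/kg/day, amlodipine at 20 mg/kg/day and hydralazine at 10 mg/kg/day. Enalapril inhibits the angiotensin-converting enzyme and candesartan blocks the angiotensin II type 1 receptor. Chlorothiazide is a thiazide diuretic, carvedilol blocks beta and alpha-1 adrenergic receptors, amlodipine blocks L-type calcium channels and hydralazine dilates arterioles. The remaining 16 arrays held the same strains with 1 of 4 vehicles, again 2 arrays a group: H2O, Solvent A (PEG300, EtOH and NaHCO3), Solvent B (NaOH) or Solvent C (0.5% MC, not spelled out in the labels). They serve here as the comparison for the drug arrays. The submitters describe the 2 arrays of a group as biological replicates. Every label lists 2 animals for its array, without saying whether these were pooled. Treatment length and blood pressure were not part of the sources used here.

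SHRSP and WKY descend from the same Wistar stock and were inbred apart, so their genomes carry many fixed differences. SHRSP rats develop severe hypertension, and their kidneys acquire arteriolar lesions, tubular injury, inflammatory cells and matrix with time. The 6 drugs represent different classes of treatment that lower blood pressure by different routes, while the inherited differences between the strains are present with or without a drug.

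The arrays were CodeLink rat arrays hybridised with Cy5-labelled cRNA. Values are log2 normalised intensities, from deposited values scaled to an array median of 1, and the dimmest values were set to a floor of -1.79. On a drug array 59.3% to 72.6% of the probes had a good quality flag, and 24993 probes entered the tests. Markers of kidney segments were present on these arrays, namely Umod of the thick ascending limb, Aqp2 of the collecting duct, Slc34a1 and Lrp2 of the proximal tubule, Nphs1 of podocytes and Atp6v1b1 of intercalated cells. The first principal component of the 24 arrays held 31.8% of the variance, and strain accounted for 93% of it. The second held 17.8%, of which scan session with slide series accounted for 80.6% and drug for 77.7%. The strains shared session and slide series within each drug, except under enalapril, where the SHRSP and WKY arrays were on different slide series and strain and slide series cannot be told apart. Under hydralazine each strain had 1 array in each of 2 sessions. The number of arrays limits the precision, and the standard errors (SE) below come from a fit to all 40 arrays with 20 residual degrees of freedom.

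Averaged with equal weight over the 6 drugs, 6410 probes differed between SHRSP and WKY kidneys at a Benjamini-Hochberg adjusted p under 0.05, which is 25.6% of the probes tested. Of these, 3195 (12.8%) were higher and 3215 (12.9%) lower in SHRSP. A difference that passed within each of the 6 drugs with the same sign, each from 2 arrays against 2, is called standing below, and 598 probes (2.39%) had one. They were split into 294 higher (1.18%) and 304 lower (1.22%) in SHRSP. The median size of a standing difference was 1.24 on the log2 scale, the smallest was 0.35, and 373 of the 598 (62.4%) were over 2-fold. All 598 were also called in the vehicle arrays with the same sign, where 21.3% of probes were called, 10.8% higher and 10.5% lower.

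Among probes with 1 gene symbol that were flagged good on every drug array, the largest standing decreases were in Fdft1, Nt5c3a, Mmadhc, Afm and Ephx2. Fdft1, squalene synthase at the start of the sterol branch of cholesterol synthesis, had log2 intensities of -0.60, 0.10 and 0.39 (lowest, median and highest) on the 12 SHRSP arrays, against 4.67, 4.76 and 5.13 on the 12 WKY arrays. The difference was -4.69 ± 0.08 (SE, adjusted p = 1.33e-24), with the highest SHRSP array far below the lowest WKY array. Nt5c3a, a pyrimidine nucleotidase, had -0.75, -0.26 and 0.27 on the SHRSP arrays, against 3.75, 3.90 and 4.09 on the WKY arrays, a difference of -4.14 ± 0.05. Ephx2, the soluble epoxide hydrolase that inactivates vasodilator epoxides of arachidonic acid, had 1.80, 2.08 and 2.41 on the SHRSP arrays, against 4.99, 5.13 and 5.30 on the WKY arrays. Its difference of -3.04 ± 0.04 stayed between -2.91 and -3.20 in the 6 drugs. For all of these genes the strains formed separate ranges.

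Among the carriers, afamin (Afm), a vitamin E-binding plasma protein of the albumin family, differed by -3.53 ± 0.06. Its relative Albfm1 had 1.43, 1.89 and 2.14 on SHRSP arrays, against 4.47, 4.88 and 5.09 on WKY arrays. Mmadhc, which routes vitamin B12 to its enzymes, had 0.52, 1.51 and 2.13 on SHRSP arrays, against 4.79, 4.99 and 5.11 on WKY arrays, a difference of -3.67 ± 0.05. The beta-defensin Defb29 differed by -2.83 ± 0.08 and Chmp1b, a subunit of the ESCRT-III membrane scission complex, by -2.65 ± 0.06. These 5 genes carried a good flag on every drug array, and none of them overlapped between the strains.

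The largest standing increases among probes with 1 gene symbol and a good flag on every drug array were in Mob4, Spg11, Ccn1, Fmo2 and Creg1. Mob4, a subunit of the STRIPAK phosphatase complex, had 2.76, 3.09 and 3.42 on SHRSP arrays, against -1.17, -0.54 and 0.09 on WKY arrays, a difference of 3.65 ± 0.08 (adjusted p = 6.33e-22). Spg11, spatacsin, needed for lysosome renewal, had 4.49, 4.84 and 5.15 on SHRSP arrays, against 0.56, 1.43 and 1.90 on WKY arrays (3.49 ± 0.06). Creg1, a secreted glycoprotein taken up into lysosomes, had 4.29, 4.46 and 4.71 on SHRSP arrays, against 0.89, 1.53 and 1.66 on WKY arrays (3.06 ± 0.04). Again all SHRSP arrays lay above all WKY arrays. Ccn1, a matricellular protein induced by stretch and growth factors, had 2.85, 3.66 and 4.68 on SHRSP arrays, against -0.59, 0.59 and 1.38 on WKY arrays (3.29 ± 0.12). Its spread within a strain was wider than that of the genes above. Fmo2, a flavin-containing monooxygenase, differed by 3.19 ± 0.06, the endosome tether Eea1 by 2.44 ± 0.07, the collagen receptor subunit Itga1 by 2.33 ± 0.08 and the Mediator subunit Med20 by 2.23 ± 0.05.

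**Figure D1:**
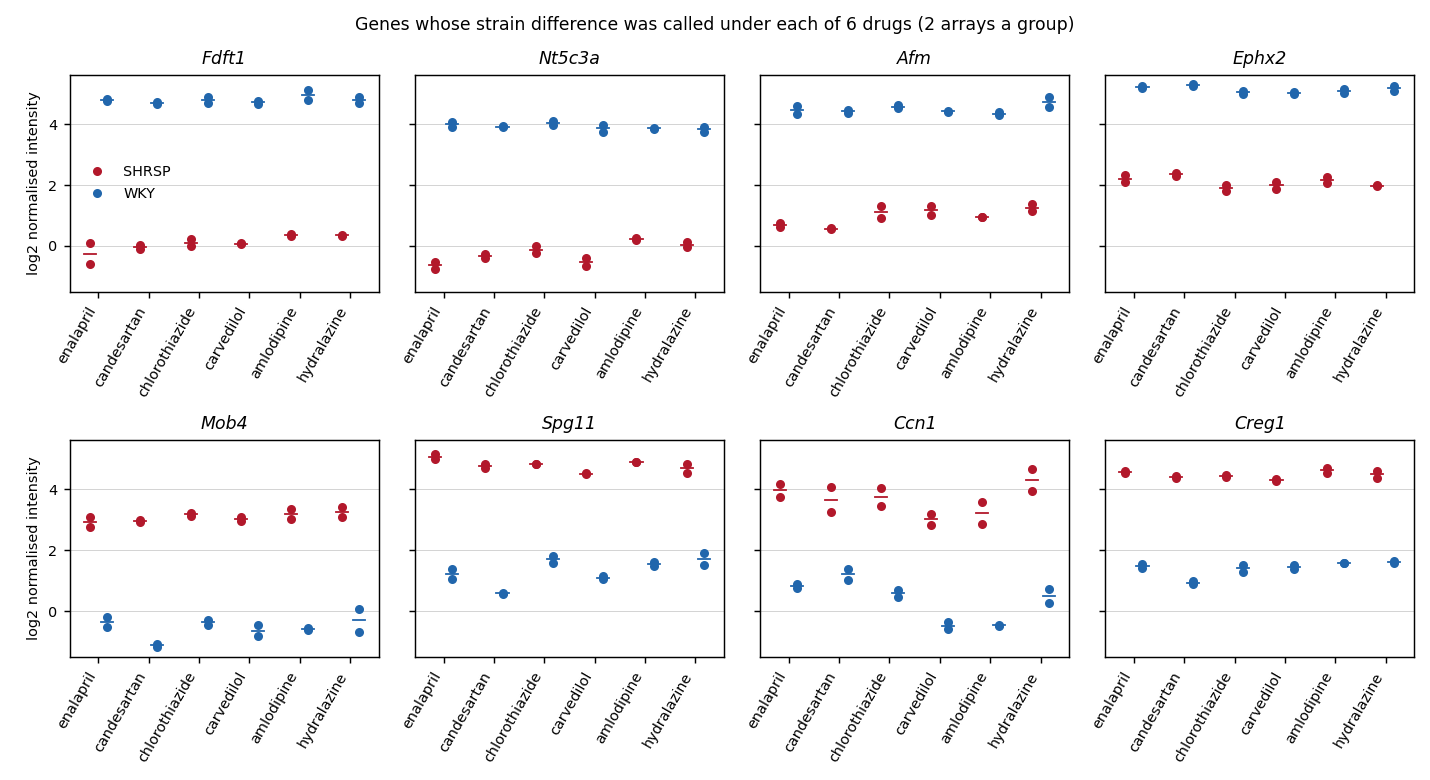
Log2 normalised intensity of 8 genes with a standing strain difference (y axis) under each of the 6 drugs (x axis), 2 SHRSP arrays in red left of 2 WKY arrays in blue for each drug. In every panel the 12 arrays of one strain lie on one side of the 12 arrays of the other, with Fdft1 between -0.60 and 0.39 in SHRSP and between 4.67 and 5.13 in WKY.

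Some of the largest values came from probes that were dim in one strain. Ctsh, the lysosomal cathepsin H, differed by -7.18 ± 0.06, with a good flag on 6 of 12 SHRSP arrays and on all 12 WKY arrays. Tgm2, transglutaminase 2, a protein cross-linker, differed by -6.62 ± 0.05 on the probe with a good flag on 3 of 12 SHRSP arrays. Cox18, which inserts a cytochrome oxidase subunit into the mitochondrial membrane, differed by -5.04 ± 0.09 with a good flag on 7 of 12 SHRSP arrays. On the higher side stood Lrif1 at 4.34 ± 0.06 (5 of 12 WKY arrays with a good flag) and Mturn at 3.71 ± 0.08 (7 of 12). Where a strain had no good flag at all or lay at the floor on every array, only a bound was measured, in which the dim strain was given, on each array, the lowest intensity with a good flag, or the probe's own where that was higher. By that bound the annexin Anxa13 was at least 31.0-fold lower in SHRSP and the phospholipid phosphatase Plpp5 at least 40.2-fold higher. Of the 598 standing probes 45 have a bound of this kind, while 346 carried a good flag on all 24 arrays, 170 of them higher and 176 lower in SHRSP.

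The count of calls differed between drugs. Enalapril had 3649 probes (14.6%), amlodipine 2117 (8.47%), hydralazine 1601 (6.41%), carvedilol 1599 (6.4%), candesartan 1379 (5.52%) and chlorothiazide 1322 (5.29%). Higher and lower calls were 7.1% and 7.5% of all probes under enalapril, 4.17% and 4.31% under amlodipine, 3.24% and 3.17% under hydralazine, 3.39% and 3.01% under carvedilol, 2.73% and 2.79% under candesartan, and 2.64% and 2.65% under chlorothiazide, so that neither direction prevailed by much. Under enalapril the strains were on different slide series, as given above. In the other 5 drugs 642 probes passed with 1 sign, and 44 of these did not pass under enalapril. A looser count, in which the average passed and both SHRSP arrays lay beyond both WKY arrays on the same side in each drug, held 1476 probes (5.91%), 723 higher (2.89%) and 753 lower (3.01%) in SHRSP. Most averaged calls rested on fewer drugs: of the 6410 calls, 2428 passed in no single drug, 1915 in 1, 680 in 2, 307 in 3, 242 in 4, 240 in 5 and 598 in 6. Across the 24993 probes the strain differences of any pair of drugs correlated with Pearson r between 0.565 and 0.795. Spearman rho, the correlation of ranks, was lower, between 0.216 and 0.505. Probes are not independent replicates and the 2 lists of a pair come from separate arrays, so this is a description and has no p.

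**Figure D2:**
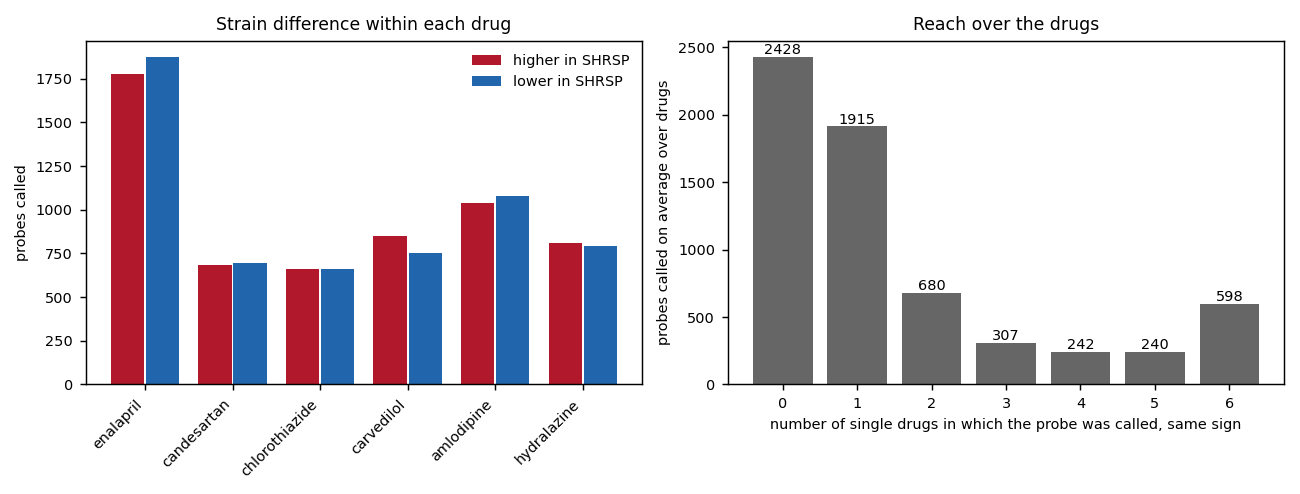
Left, number of probes called higher and lower in SHRSP than in WKY within each drug (bars, 2 arrays against 2, adjusted p under 0.05), highest for enalapril at 1775 higher and 1874 lower. Right, the 6410 probes called on average by the number of drugs in which they were also called with the same sign, with 2428 in none and 598 in all 6.

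Genes measured by more than 1 probe showed how far a standing difference belonged to the gene or to a probe. Of 2862 genes with 2 or more tested probes, 118 had a standing probe. In 10 of these every probe stood with the same sign. Ccdc92, a coiled-coil protein, was 1.22 ± 0.04 and 1.20 ± 0.06 higher on its probes. Fhip2a, of a family that links dynein motors to vesicles, was 1.85 higher on both, with errors of 0.07 and 0.08. Gtpbp4, a ribosome assembly GTPase, was 1.95 ± 0.05 and 1.09 ± 0.05 higher. On the lower side the receptor tyrosine kinase Ros1 differed by -2.60 ± 0.07 and -1.88 ± 0.11, and the serine protease homologue Prss35 by -2.43 ± 0.12 and -1.07 ± 0.07. The direction was the same on each probe. The smaller value of Ros1 and the larger value of Prss35 came from probes whose SHRSP median lay at the floor, with a good flag on 2 and 3 of 12 SHRSP arrays, so these sizes depend on the floor.

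In 56 of the 118 genes a standing probe sat beside a probe with a small difference, meaning that its whole 95% interval lay within 0.3 of 0 (1.23-fold). Vcam1, an endothelial adhesion molecule for leukocytes, was -3.38 ± 0.11 on one probe (5 of 12 SHRSP arrays with a good flag) and -0.13 ± 0.04 on the other. Fry, a microtubule-binding protein, was at least 10.4-fold higher on one probe and 0.03 ± 0.04 on the other. Mtus1, Rcbtb2 and Apol3l1 gave the same contrast of a large and a small value. Fdft1 had a second probe at -0.23, Ccn1 at 0.75, Fmo2 at 0.35, Creg1 at 0.15 (not called, adjusted p = 0.358), Eea1 at -0.10 on 2 probes and Tgm2 at 0.29. For Tgm2 the 2 probes were called in opposite directions, which happened in 54 of 364 genes with 2 or more called probes. The cause of the disagreement was not tested, and a single-probe value above gives the difference at that probe.

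Standing genes were also placed in the gene order of the RefSeq annotation of assembly GRCr8, used for names and neighbours only. Of 10645 measured genes, 325 (3.05%) had a standing probe. Of these 325 genes, 41 (12.6%) had a standing gene as a measured neighbour, against 5.71% of the other genes. The single run of 3 genes was Fhip2a, Trub1 and Gfra1, all higher in SHRSP. This is a description of position with no test.

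Most probes showed no sizeable strain difference under drugs. The 95% interval of 16403 probes (65.6%) lay within 0.3 of 0, as did 11718 (74.5%) of the 15719 probes flagged good on every drug array. Small and called are not opposites here: 1781 of the 6410 calls (27.8%) were small, with 0.23 the largest size among small probes. A further 3961 probes were neither called nor small, so their difference was not resolved at this precision. A test for differences over 0.3 (limma's treat) called 1167 probes (4.67%), 560 higher (2.24%) and 607 lower (2.43%).

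The genes below are given by list, with 1 probe per gene, and a list is described by its counts and median beside those of all tested probes (25.6% called, 65.6% small, median difference 0.00052). Measured members over all 33 lists numbered 675 genes, of which 377 were small and 30 standing. In bulk kidney, fewer cells of a type and less RNA per cell cannot be told apart.

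Oxidative phosphorylation, the respiratory chain of the mitochondria, had the highest share of small members among the lists of 10 or more genes. Of 44 measured subunit genes of the respiratory chain and ATP synthase 40 were small (90.9%), 0 were higher and 7 lower in SHRSP, and the median was -0.04. Ndufb8 of complex I was the clearest, with 6.48, 6.61 and 6.84 on SHRSP arrays, against 6.90, 6.97 and 7.24 on WKY arrays (-0.38 ± 0.04). The SHRSP arrays lay below the WKY arrays without overlap. Without enalapril 4 members of the list were lower instead of 7. Gluconeogenesis and ammoniagenesis had 9 of 11 members small, among them glutamate dehydrogenase (Glud1, -0.05 ± 0.03), which releases ammonia, and Slc37a4 (-0.13 ± 0.04), which carries glucose-6-phosphate. Glucose-6-phosphatase (G6pc1), the last enzyme of glucose release, was the exception on the higher side at 0.42 ± 0.05 on average. Its difference varied between drugs (adjusted p = 0.00884 by a moderated F test), from -0.16 under carvedilol and 0.03 under chlorothiazide to 0.80 under enalapril.

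Proximal tubule transport had 20 of 28 members small, 4 higher and 6 lower, with a median of 0.0011. The phosphate cotransporter Slc34a1 (0.00), the endocytic receptor Lrp2 (0.05), the glutamate transporter Slc1a1 (-0.06) and the amino acid transporter Slc6a18 (0.06) were small. The fructose transporter Slc2a5 was lower in SHRSP, with 3.35, 3.56 and 4.05 on SHRSP arrays, against 3.81, 4.11 and 4.34 on WKY arrays (-0.48 ± 0.05). The glucose cotransporter Slc5a2 differed by -0.31 ± 0.06 and Cldn10, a tight junction claudin, by -0.35 ± 0.05. For these genes the ranges of the strains overlapped in part.

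In the thick ascending limb 3 of 13 members were higher and 2 lower. Slc5a3, the myo-inositol cotransporter that supplies an osmolyte of the medulla, had 1.59, 2.37 and 3.02 on SHRSP arrays, against 0.13, 0.79 and 1.36 on WKY arrays, a difference of 1.51 ± 0.11 (adjusted p = 8.86e-11) that passed in 5 of the 6 drugs. All SHRSP arrays lay above all WKY arrays. The calcium-sensing receptor Casr differed by -0.49 ± 0.06. Uromodulin (Umod, 0.15) and barttin (Bsnd, 0.01), a chloride channel subunit, were small.

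Genes of the distal convoluted tubule and of divalent ion handling were higher more often than lower, 7 against 0 of 18, with a median of 0.14. Kl, klotho, the coreceptor for the phosphate hormone FGF23, had -0.47, 0.65 and 1.72 on SHRSP arrays, against -1.79, -1.09 and 0.08 on WKY arrays, a standing difference of 1.74 ± 0.10 on a probe with a good flag on 9 of 12 WKY arrays. The pooled ranges of Kl overlapped, while each drug separated the strains. Slc12a3, the thiazide-sensitive sodium chloride cotransporter, had 5.51, 6.03 and 6.33 on SHRSP arrays, against 4.97, 5.63 and 5.99 on WKY arrays. Its averaged difference was 0.40 ± 0.05 on this probe and 0.18 ± 0.04 on the other, and by drug it ran from 0.05 under amlodipine to 0.74 under candesartan. The ranges of the strains overlapped. The kinase Wnk1, which switches on that cotransporter, was 0.36 ± 0.05 higher, and the vitamin D 24-hydroxylase Cyp24a1 0.51 ± 0.09 higher.

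Of 21 collecting duct principal cell genes 7 were higher and 2 lower. Sgk1, the aldosterone-induced kinase of sodium channel regulation, had 5.87, 6.66 and 7.33 on SHRSP arrays, against 5.62, 6.08 and 6.53 on WKY arrays (0.57 ± 0.10). Kcne1, a potassium channel subunit, had -1.79, -0.99 and -0.62 on SHRSP arrays, against -0.45, 0.21 and 0.62 on WKY arrays (-1.18 ± 0.11). Sgk1 overlapped between the strains and Kcne1 did not. The sodium channel subunit Scnn1b (0.02) and its activating protease Prss8 (-0.08) were small. Aqp2, the vasopressin-regulated water channel, was at -0.07 ± 0.11 and neither small nor called. Of 21 intercalated cell genes 16 were small, 3 higher and 6 lower. The proton pump subunits Atp6v1b1 (-0.10) and Atp6v1e1 (0.01) were small, while the anion exchanger Slc4a1 was 0.35 ± 0.04 higher. Jchain, the joining chain of secreted immunoglobulins, was the single standing member, with -0.30, 0.01 and 0.37 on SHRSP arrays, against 0.61, 1.00 and 1.36 on WKY arrays (-0.94 ± 0.09), without overlap.

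The renin-angiotensin list, the pathway that enalapril and candesartan act on, had 11 of 16 members small, 2 higher and 2 lower. Angiotensinogen (Agt) did not pass at 0.16 ± 0.10, and Ace was small on both probes at 0.04 ± 0.06 and -0.12 ± 0.06. The receptor Agtr1b had 1.01, 1.39 and 1.54 on SHRSP arrays, against 0.70, 1.15 and 1.41 on WKY arrays (0.24 ± 0.04). Agtr1a differed by -0.12 ± 0.04 (adjusted p = 0.0381), small in size. The call was kept in 11 of 24 fits that each left out 1 drug array and in 8 of 13 other settings. In all, 11 of 15 genes named as drug targets were tested on 14 probes, of which 6 were called and 9 were small, beside 25.6% and 65.6% of all probes. Small values were also seen for carbonic anhydrase 2 (Car2, -0.02), the adrenergic receptors Adra1b (0.06) and Adra1d (-0.08 and 0.07) and the calcium channel Cacna1c (-0.08). Carbonic anhydrase 4 (Car4) differed by -0.31 ± 0.04. Cacna1d, at -0.33 ± 0.09, had a good flag on 2 of 12 SHRSP arrays and 5 of 12 WKY arrays.

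Among kallikrein-kinin and natriuretic peptide genes 1 of 11 was higher and 6 were lower. The kallikrein-family gene Klk1c9 had -0.57, -0.13 and 0.82 on SHRSP arrays, against 1.09, 1.89 and 2.85 on WKY arrays, a standing difference of -1.96 ± 0.08. Klk1c4 differed by -0.53 ± 0.08. The family holds near-identical copies, so which member a probe measured is uncertain. The nitric oxide receptor subunits Gucy1b1 and Gucy1a1 differed by -0.45 ± 0.05 and -0.32 ± 0.06. Of 17 adrenergic, dopamine and endothelin genes 4 were higher and 2 lower. Neuropeptide Y (Npy), a sympathetic cotransmitter, had 1.25, 1.66 and 2.16 on SHRSP arrays, against 0.40, 0.62 and 0.99 on WKY arrays, a standing difference of 1.05 ± 0.08 (adjusted p = 1.21e-10). The strains did not overlap for Npy.

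Eicosanoid genes held 3 standing members, all lower in SHRSP, of 6 higher and 6 lower among 23. Besides Ephx2, they were Ptgds, a prostaglandin D synthase, with 3.64, 3.99 and 4.47 on SHRSP arrays, against 4.71, 5.00 and 5.22 on WKY arrays (-0.95 ± 0.07), and Pla2g4a, the phospholipase that frees arachidonic acid. Pla2g4a was -3.03 ± 0.06 on a probe with a good flag on 1 of 12 SHRSP arrays. Cyclooxygenase 1 (Ptgs1, 0.09) was small. Among 31 oxidative stress and nitric oxide genes 22 were small, 3 higher and 4 lower. Catalase (Cat), which degrades hydrogen peroxide, had 4.99, 5.81 and 6.17 on SHRSP arrays, against 4.38, 5.04 and 5.52 on WKY arrays (0.69 ± 0.13), with overlap, and Ncf4, a subunit of the phagocyte oxidase, was 0.52 ± 0.06 higher, without overlap.

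Lipid genes held several of the standing differences. Of 38 fatty acid oxidation and ketone genes 12 were higher and 4 lower, and 2 stood. Acox2, a peroxisomal oxidase of branched acyl chains, had 3.35, 3.99 and 4.20 on SHRSP arrays, against 1.16, 1.89 and 2.02 on WKY arrays (2.07 ± 0.09). Acsm3, a medium-chain acyl-CoA synthetase also known as the SA gene of hypertensive rats, had 6.10, 6.31 and 6.60 on SHRSP arrays, against 5.48, 5.71 and 6.08 on WKY arrays (0.59 ± 0.04). Both genes separated the strains completely. Ehhadh, the peroxisomal bifunctional enzyme, was 0.40 ± 0.05 higher, and Acaa2, the last enzyme of the mitochondrial cycle, was small at 0.05. Of 28 cholesterol and fatty acid synthesis genes 4 were higher and 7 lower, and the standing members were Fdft1 and the next enzyme of the pathway, squalene epoxidase (Sqle, -1.67 ± 0.09 and -0.31 on its other probe). Mvd, an earlier enzyme of the pathway, was called but small (-0.20 ± 0.04), and so was Acly (0.13 ± 0.04), which makes cytosolic acetyl-CoA.

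Of 27 conjugation genes 10 were higher and 8 lower. The glutathione transferase Gsta3 had 3.07, 3.23 and 3.43 on SHRSP arrays, against 2.38, 2.54 and 2.80 on WKY arrays (0.69 ± 0.03). The sulfotransferase Sult1b1 was 0.61 ± 0.05 higher, and the transferase Gsto1 had 3.52, 3.60 and 3.72 on SHRSP arrays, against 4.03, 4.12 and 4.24 on WKY arrays (-0.52 ± 0.04). These 3 stood in every drug. Gsta1 was 0.44 ± 0.05 higher and passed in 4 drugs. Among 26 organic ion and ABC transporters 18 were not called, 3 were higher and 5 lower. The bile salt exporter Abcb11 stood at -0.64 ± 0.04, and the drug efflux pump Abcb1a was 0.61 ± 0.06 higher.

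Of 29 macrophage and complement genes 11 were higher and 2 lower. The Fc receptor Fcgr3a had 2.06, 2.47 and 2.80 on SHRSP arrays, against 1.19, 1.46 and 1.71 on WKY arrays (0.95 ± 0.05, adjusted p = 4.8e-14), and Fcgr1a was 0.58 ± 0.04 higher. Both stood in every drug, with no overlap between the strains. Cathepsin S (Ctss), which trims antigens in phagocytes, was 0.53 ± 0.05 higher. The cytokine Tnf (0.02) and the macrophage marker Aif1 (0.11) were small. The log2 of the summed intensity of the list ran from 7.37 to 7.70 on SHRSP arrays and from 7.11 to 7.44 on WKY arrays, and its part in the differences of single immune genes was not tested.

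Of 32 genes of antigen presentation and the interferon response 8 were higher and 5 lower. The class II genes RT1-Da, RT1-Db1 and the invariant chain Cd74 stood at 0.62 ± 0.04, 0.51 ± 0.04 and 0.66 ± 0.05. For Cd74 the arrays gave 6.93, 7.20 and 7.47 in SHRSP, against 6.29, 6.57 and 6.79 in WKY, without overlap. The class I gene RT1-N3 stood in the other direction, with 0.62, 1.04 and 1.24 on SHRSP arrays, against 2.00, 2.32 and 2.57 on WKY arrays (-1.35 ± 0.05). MHC genes are a polymorphic family with near-identical copies, so which member a probe measured is uncertain. The class I light chain B2m (0.05) and the interferon signal transducer Stat2 (-0.02) were small. Of 14 lymphocyte genes 0 were higher and 5 lower (2 lower without enalapril), such as the T cell adhesion molecule Cd2 at -0.55 ± 0.12.

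Of 15 endothelial genes 6 were higher and 1 lower. Pecam1, a junction protein of endothelium, had 3.71, 3.94 and 4.27 on SHRSP arrays, against 3.15, 3.49 and 3.93 on WKY arrays (0.42 ± 0.03), and stood in every drug, although the pooled ranges overlapped. Von Willebrand factor (Vwf), a clotting factor carrier of endothelium, went the other way, with 2.42, 2.96 and 3.21 on SHRSP arrays, against 3.14, 3.50 and 3.81 on WKY arrays (-0.60 ± 0.06). Of 16 smooth muscle and pericyte genes 6 were higher, 1 was lower and 9 were not called. Synpo2, an actin-binding protein, was 0.60 ± 0.06 higher and the contractile regulator Cnn1 0.24 ± 0.06 higher, while the pericyte receptor Notch3 (0.05) was small. Of 11 podocyte genes 5 were higher and 0 lower, led by the transcription factor Wt1 (0.38 ± 0.06) and by nestin (Nes, 0.34 ± 0.05).

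Tubular injury genes were split. Of 21 measured, 5 were higher, 6 lower and 10 not called under drugs, with a median of -0.11, while in the vehicle arrays 14 were higher and 3 lower, with a median of 0.49. Clusterin (Clu), a secreted chaperone of injured tubules, had 3.79, 4.16 and 4.48 on SHRSP arrays, against 3.04, 3.45 and 3.74 on WKY arrays (0.66 ± 0.07), and keratin 19 (Krt19) was 0.57 ± 0.05 higher. Both were called in 5 of 6 drugs and separated the strains. Lgals3, galectin 3, differed by -0.39 ± 0.07. Havcr1, kidney injury molecule 1, differed between its probes: GE13234 stood at -2.35 ± 0.16, while GE1278517 was at 0.25 ± 0.24 (adjusted p = 0.5).

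Of 32 matrix genes 3 were higher and 14 lower under drugs, with a median of -0.15, while in the vehicle arrays 12 were higher and 1 lower, with a median of 0.05. Without enalapril, 1 was higher and 9 lower. Decorin (Dcn), a collagen-binding proteoglycan, had 4.58, 4.95 and 5.16 on SHRSP arrays, against 5.18, 5.27 and 5.70 on WKY arrays (-0.41 ± 0.06). Collagens Col15a1 and Col5a2 differed by -0.42 ± 0.05 and -0.28 ± 0.06, and fibrillin (Fbn1) by -0.24 ± 0.05. Sparc (0.08) and Col1a2 (-0.05) were small. No member of this list stood in every drug. Of 27 protease and inhibitor genes 5 were higher and 10 lower. Besides Ctsh, the gelatinase Mmp2 stood, with 1.52, 1.88 and 2.04 on SHRSP arrays, against 2.35, 2.60 and 2.75 on WKY arrays (-0.71 ± 0.05), whereas the other gelatinase, Mmp9, was 0.83 ± 0.08 higher.

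Among 31 cell cycle genes 3 were higher and 9 lower. The replication helicase subunit Mcm6 had -1.06, -0.69 and -0.34 on SHRSP arrays, against 0.70, 0.88 and 1.19 on WKY arrays (-1.67 ± 0.07), but its other probe was small at -0.08. Birc5, survivin, a mitotic protein, had -0.21, 0.12 and 0.73 on SHRSP arrays, against 1.27, 1.65 and 1.95 on WKY arrays (-1.52 ± 0.09). Both probes separated the strains and stood in every drug. Mcm7, of the same helicase, was 0.50 ± 0.04 higher. Of 31 immediate early genes 7 were higher and 0 lower, with Ccn1 the standing one, Ccn2, connective tissue growth factor, at 0.67 ± 0.09 and the phosphatase Dusp5 at 0.37 ± 0.05. Of 18 clock genes 4 were higher and 5 lower, such as Npas2 at 0.48 ± 0.06 and Dbp at -0.45 ± 0.07 on average. The array ranges of Dbp were wider than 2 log2 units in each strain (3.85 to 5.95 in SHRSP and 3.39 to 6.15 in WKY). Both genes varied between drugs by the moderated F test (adjusted p = 0.0461 for Npas2 and 0.0323 for Dbp). Npas2 ran from -0.11 under carvedilol to 0.98 under chlorothiazide, and Dbp from -0.81 under amlodipine to 0.45 under carvedilol.

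Genes proposed by others as candidates for hypertension in these rats were called 11 times in 21, 7 higher and 4 lower. Acsm3 and Ephx2 stood, and the mitochondrial nuclease Endog (0.49 ± 0.04) and Fam151a (0.50 ± 0.06) passed in 5 and 4 drugs. The list was drawn up with such rats in mind and with earlier results of these data known, so its counts are not independent evidence.

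Markers of tissues that a kidney dissection can include were examined in the same way. Of 5 adrenal genes and of 8 liver and muscle genes 0 were called. Of 10 fat genes 2 were higher and 3 lower (1 and 1 without enalapril), and the log2 of their summed intensity was 5.96 to 6.24 on SHRSP arrays and 6.17 to 6.71 on WKY arrays. Ucp1, the uncoupling protein of brown fat, stood on both probes at -3.69 ± 0.16 and -2.50 ± 0.12, with -0.56, 0.54 and 1.48 on SHRSP arrays, against 3.42, 4.26 and 5.06 on WKY arrays for the first. Lpl, lipoprotein lipase, stood in the other direction at 2.39 ± 0.11, and the lipid droplet protein Cidec was small at -0.03. The part of fat tissue in these values was not tested. Of 5 blood genes 1 was higher and 2 lower, with the globin Hba-a3 at -0.39 ± 0.10.

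Some of these counts depended on which probes and drugs entered. With a good flag asked on all 40 arrays fewer members were tested, and 3 of 11 cell cycle genes, 3 of 5 kallikrein-kinin and natriuretic peptide genes, 2 of 10 eicosanoid genes and 2 of 27 fatty acid oxidation genes were lower, while 3 of 12 tubular injury genes were higher. Without enalapril, 4 collecting duct genes were higher and 3 genes each of antigen presentation and of the clock were lower. With median scaling, 3 oxidative phosphorylation genes were lower, and 1 renin-angiotensin gene was higher and 1 lower.

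**Figure D3:**
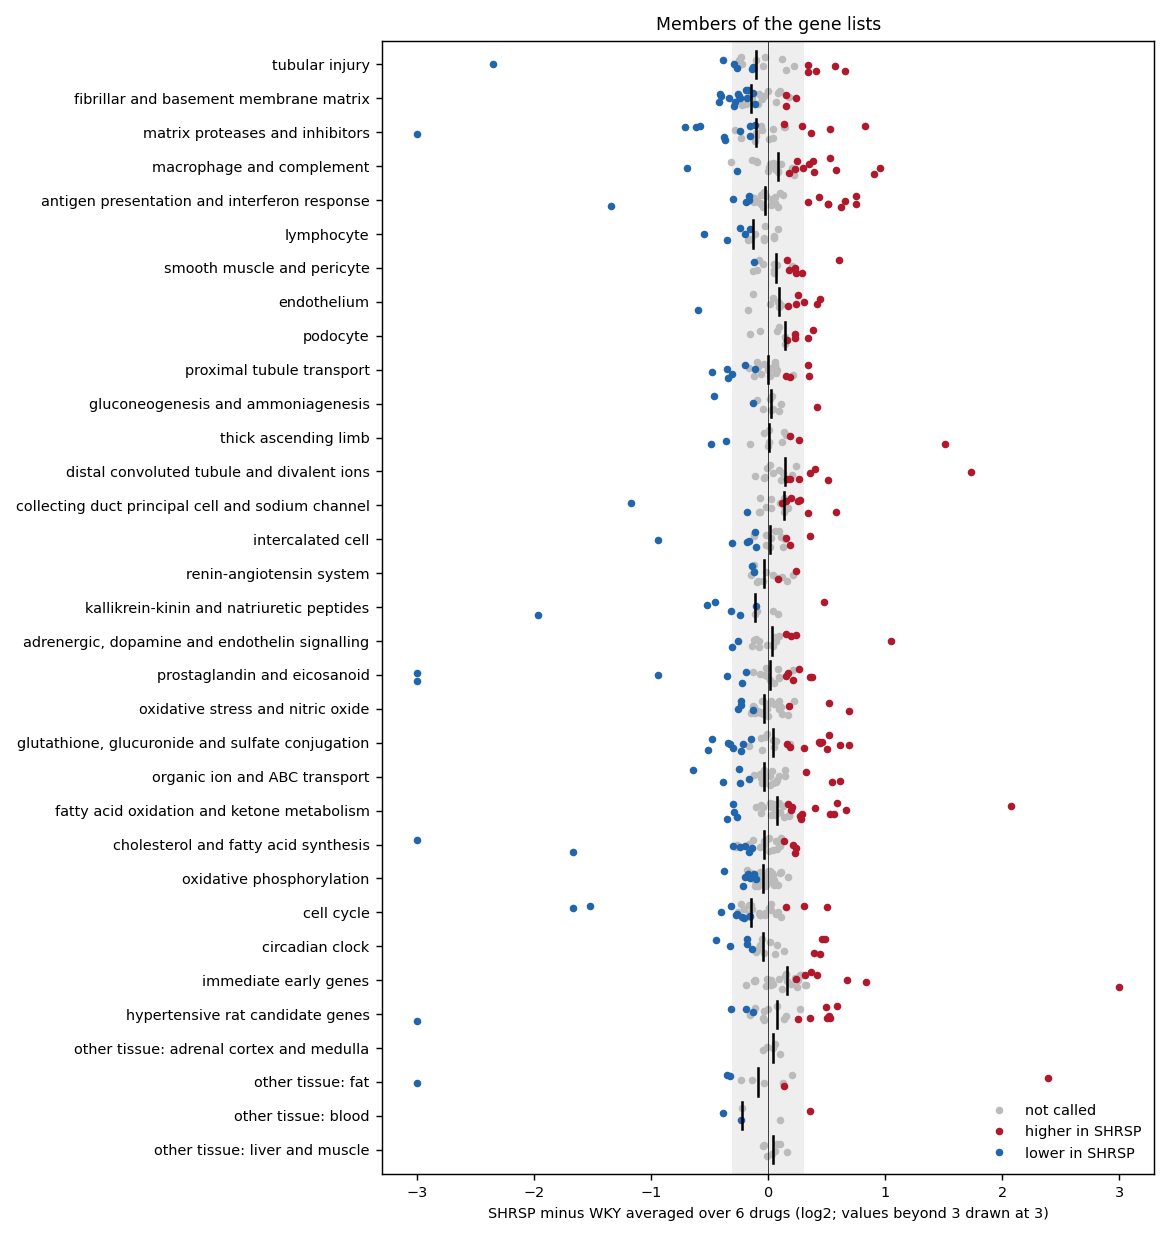
Averaged strain difference under drugs (x axis, SHRSP minus WKY, log2) for each measured member of the 33 gene lists (rows). Points are genes, the bar is the list's median, values beyond 3 in size are drawn at 3, and the grey band marks 0.3 on either side of 0, in which most oxidative phosphorylation genes lie.

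A moderated F test over the 6 drugs asked whether the strain difference depended on the drug. It called 157 probes (0.628%), with 2921 at an unadjusted p under 0.05. Of the 157 called probes, 86 carried a good flag on all 24 arrays and 65 were small on average. A probe that missed the threshold is not shown to have the same strain difference under every drug. Drug and scan session mostly coincide, so they cannot be told apart. Enalapril was the drug farthest from the others for 67 of the 157 probes, carvedilol for 32, amlodipine for 23, candesartan for 17, chlorothiazide for 15 and hydralazine for 3. Under enalapril strain and slide series cannot be told apart either, and without enalapril 72 probes were called. Of the 598 standing probes 26 varied.

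Mmadhc was among them (adjusted p = 0.000435), with a difference of -4.43 under candesartan, -4.14 under enalapril, -3.60 under carvedilol, -3.46 under chlorothiazide, -3.31 under hydralazine and -3.06 under amlodipine. Its WKY arrays stayed near 5 while the SHRSP arrays moved, at 0.52 and 0.59 under candesartan and at 2.13 and 1.74 under amlodipine. Trap1, a mitochondrial chaperone (adjusted p = 0.00102), behaved alike, with -3.09 under enalapril and -3.03 under candesartan, and between -2.19 and -2.40 under the other 4 drugs. Fmo2 (adjusted p = 0.00102) ranged from 2.41 under chlorothiazide to 3.78 under enalapril. Rnf40, a ubiquitin ligase of histones, ranged from 1.08 under carvedilol to 2.77 under chlorothiazide (adjusted p = 0.00289, a call lost with only the 24 drug arrays in the fit at 0.0677). Its probe had a good flag on 6 of 12 WKY arrays and lay at the floor on 3 of them, so the sizes for Rnf40 depend on the floor. For these genes the size varied and the direction did not.

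Calls for another pair of genes rested on few arrays. Fgd4, an exchange factor for Cdc42, was above the floor on both SHRSP enalapril arrays (0.07 and -0.27). It was at the floor on all other drug arrays (adjusted p = 2.35e-09 by the F test). A good flag was given on 2 of 12 SHRSP and 0 of 12 WKY drug arrays. Set to the floor, the other arrays had no spread, so this p does not measure a spread between them. The Fgd4 call was lost in the authors' table without a floor and without enalapril. Cdh13, T-cadherin, had a value of 1.83 on the single SHRSP carvedilol array that gave one (adjusted p = 0.00169), and 0.0812 with only the 24 drug arrays in the fit. Lysozyme (Lyz2) of macrophages had a difference that passed in 5 drugs and not under enalapril, where strain and slide series cannot be told apart. Its arrays gave 3.19 and 2.93 in SHRSP under enalapril, against 3.01 and 3.40 in WKY, a difference of -0.15. Under the other drugs the SHRSP arrays gave 3.89 to 4.82 and the WKY arrays 2.96 to 3.61, with differences from 0.98 to 1.19.

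The strain differences under drugs were then set against those in the vehicle arrays, which share no array with them but share the fit and its spread per probe. Across all probes the 2 sets of differences correlated with Pearson r = 0.921 and Spearman rho = 0.693, given as a description with no p. Both comparisons called 3904 probes, 3885 with the same sign and 19 with opposite signs. The shared calls of like sign were 60.6% of the drug calls and 73.1% of the vehicle calls. Of the vehicle calls 1145 were small and not called under drugs. The difference between the 2 strain differences was itself tested, and 39 probes passed (0.156%, with 1952 at an unadjusted p under 0.05), 7 higher (0.028%) and 32 lower (0.128%) under drugs. Of the 39, 28 were nearer 0 under drugs than under vehicles, and 11 were called on both sides with opposite signs. For 4 standing probes the size differed between drugs and vehicles.

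**Figure D4:**
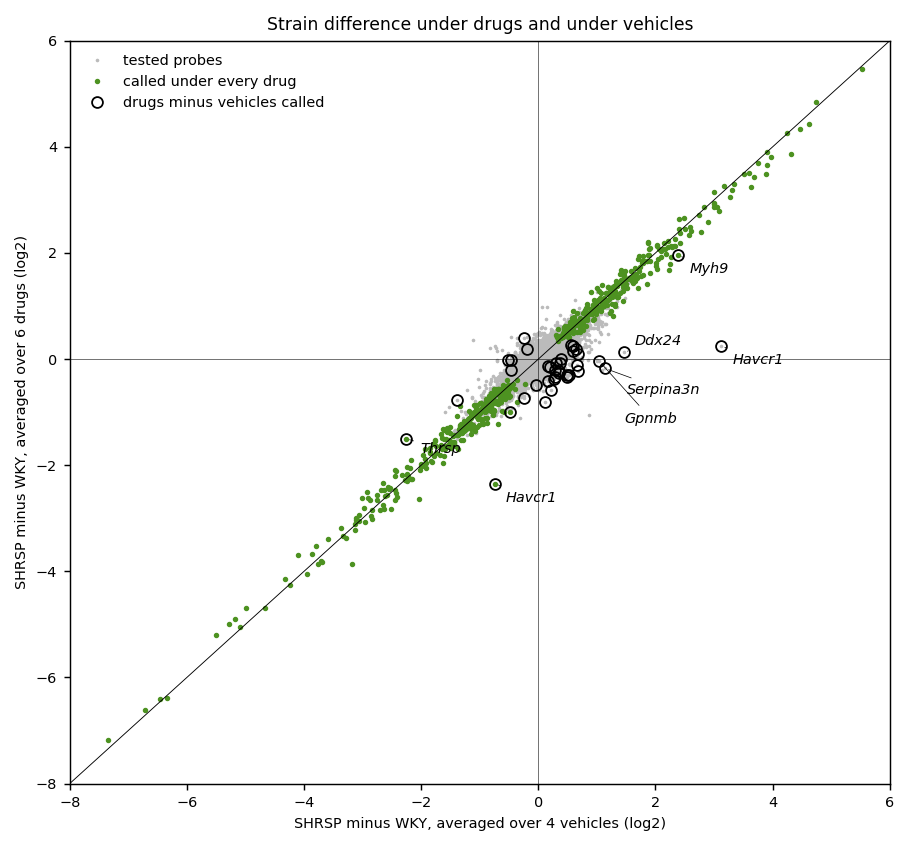
Strain difference averaged over 6 drugs (y axis, log2) against that averaged over 4 vehicles (x axis, log2) for the tested probes (grey), with probes called under every drug in green and the 39 probes whose difference between drugs and vehicles was called circled. Green points mostly lie along the line of equality, but 4 of them are also circled, such as Havcr1 on probe GE13234 at -2.35 under drugs and -0.74 under vehicles. Havcr1 on probe GE1278517 lies at 0.25 under drugs and 3.13 under vehicles.

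The genes that differed included markers of tubular injury and matrix, 5 of 21 and 4 of 32 list members, beside 0.156% of all probes. Across the alternatives run, which included leaving out arrays, these counts were 2 to 7 and 3 to 5. Havcr1 on probe GE1278517 had -0.01, 0.89 and 3.98 on SHRSP drug arrays and 0.43, 0.93 and 1.52 on WKY drug arrays. On vehicle arrays the same probe had 1.79, 3.55 and 5.61 in SHRSP and 0.15, 0.50 and 0.99 in WKY. The strain difference was thus 0.25 ± 0.24 under drugs and 3.13 ± 0.29 under vehicles, a change of -2.88 ± 0.38 (adjusted p = 0.000937). The SHRSP drug arrays overlapped the WKY drug arrays, with 1 amlodipine array at 3.98 and both chlorothiazide arrays, at 2.10 and 1.76, above them all, whereas the SHRSP and WKY vehicle arrays did not overlap. On probe GE13234 the change was -1.61 ± 0.26 in the same direction, from a difference that was negative on both sides.

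Gpnmb, a lysosomal glycoprotein of injured tubules and macrophages, had 2.00, 2.46 and 2.76 on SHRSP drug arrays and 2.02, 2.43 and 2.87 on WKY drug arrays. On vehicle arrays it had 2.78, 3.18 and 4.65 in SHRSP and 2.16, 2.32 and 2.60 in WKY. Its strain difference was -0.04 ± 0.10 under drugs, which is small, and 1.04 ± 0.12 under vehicles (change -1.08 ± 0.16, adjusted p = 0.00246). Osteopontin (Spp1), a secreted phosphoprotein of injured tubules, had a change of -0.91 ± 0.18, the adhesion receptor Cd44 of -0.78 ± 0.14 and the metalloproteinase inhibitor Timp1 of -0.77 ± 0.12. For Timp1 the SHRSP drug arrays spanned 2.47 to 3.15 and the WKY drug arrays 2.53 to 3.12, fully overlapping.

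The 4 matrix genes were Col15a1 (-0.58 ± 0.08 and -0.63 ± 0.09 on its probes), Col8a1 (-0.83 ± 0.15), elastin (Eln, -0.82 ± 0.14) and tenascin C (Tnc, -0.44 ± 0.08). On average Eln and Col8a1 were lower in SHRSP under drugs (-0.29 ± 0.09 and -0.34 ± 0.09) and higher in SHRSP under vehicles (0.52 ± 0.11 and 0.50 ± 0.11). Col8a1 was negative under each drug, from -0.16 under carvedilol to -0.68 under amlodipine. Eln had mixed signs, with -0.87 under enalapril and -0.71 under amlodipine, but 0.10 under hydralazine and 0.23 under chlorothiazide. Ube2c, a ubiquitin-conjugating enzyme of mitosis, also had opposite averages, with -0.21 ± 0.06 under drugs and 0.28 ± 0.07 under vehicles. On the positive side were Thrsp, a lipogenic protein (0.76 ± 0.14, from -1.50 under drugs and -2.26 under vehicles), the Wnt receptor Fzd9 (0.65 ± 0.12), the iodide transporter Slc5a5 (0.51 ± 0.11) and RGD1559600 (0.44 ± 0.08), each of which lost its call in at least 1 alternative. Myh9, nonmuscle myosin, and the acute-phase inhibitor Serpina3n were picked after their values were seen. Myh9 stood at 1.96 ± 0.05 under drugs and was 2.39 ± 0.06 under vehicles. Serpina3n was -0.18 ± 0.17 under drugs and 1.14 ± 0.21 under vehicles. Its lowest values on SHRSP drug and WKY vehicle arrays lay at the floor, with a good flag on 8 and 4 of these arrays. Fzd9 had medians near the floor on WKY drug and SHRSP vehicle arrays (-1.72 and -1.75), with a good flag on 5 and 2 of them. The sizes for Serpina3n and Fzd9 therefore depend on the floor.

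**Figure D5:**
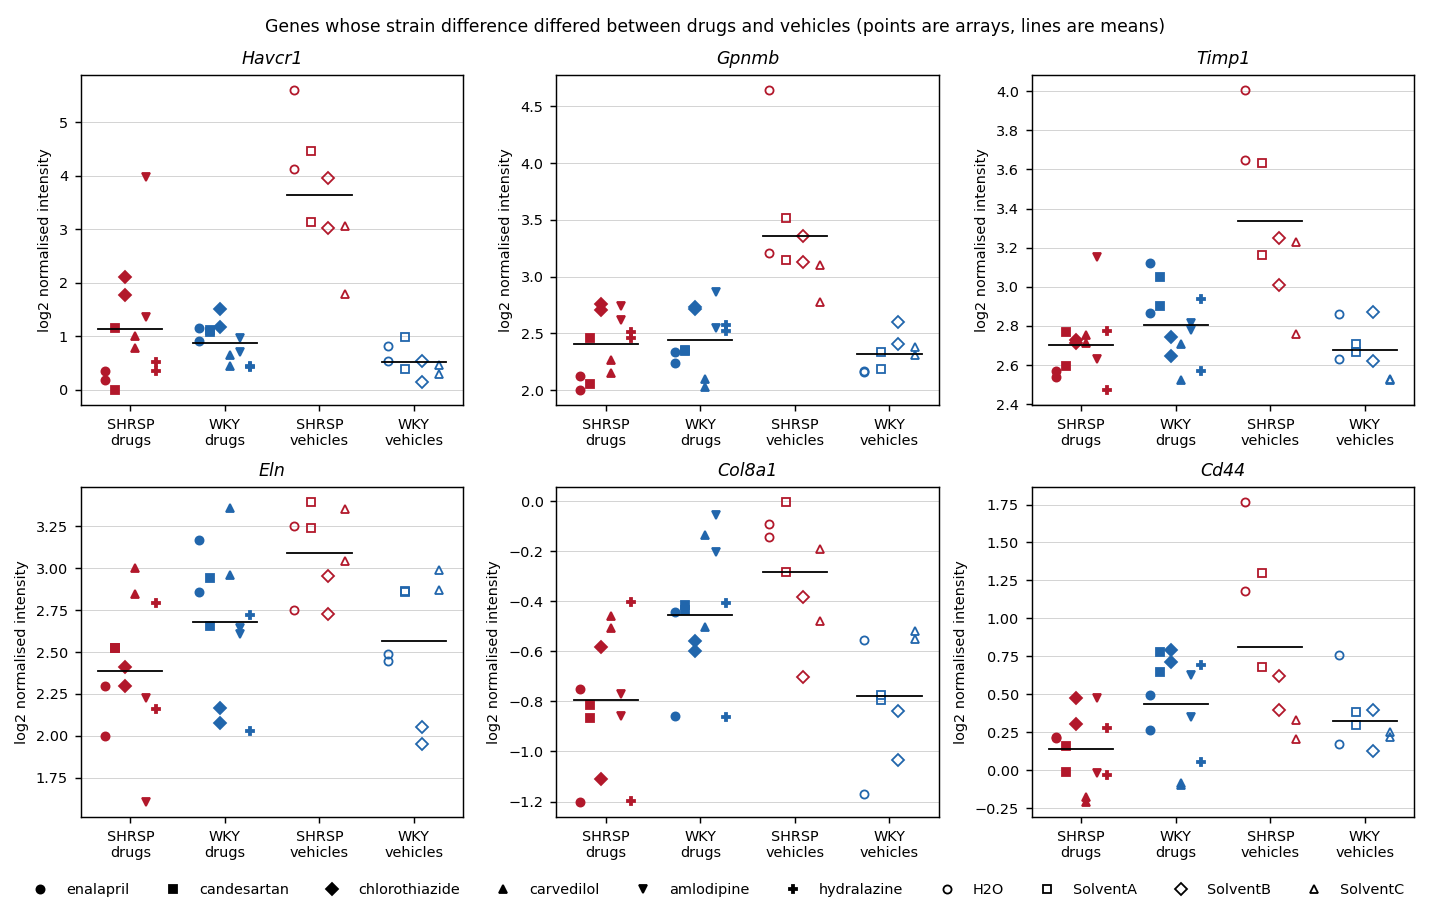
Log2 normalised intensity (y axis) of 6 genes whose strain difference differed between drugs and vehicles, on SHRSP drug, WKY drug, SHRSP vehicle and WKY vehicle arrays from left to right (symbols mark the compound, lines are means, Havcr1 on probe GE1278517). The SHRSP vehicle arrays are the highest group in each panel, for Gpnmb between 2.78 and 4.65 against 2.16 to 2.60 on the WKY vehicle arrays.

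No vehicle array was scanned in the sessions of amlodipine and hydralazine, and the WKY enalapril arrays were on another slide series than H2O, so the comparison was repeated with candesartan, chlorothiazide and carvedilol against Solvent A, B and C, which share scan sessions in both strains. Under these 3 drugs 3359 probes were called (13.4%; 6.86% higher and 6.58% lower), and under the 3 solvents 4119 (16.5%; 8.16% higher and 8.32% lower). Their difference called 1 probe (0.004%), with 1132 at an unadjusted p under 0.05. That probe was Ddx24, an RNA helicase (-1.64, adjusted p = 0.00038), which rested on a single WKY Solvent A array with a value, at the floor of -1.79, while the other WKY vehicle arrays lay between 3.41 and 3.65. Its second probe was small under drugs at -0.04. All 39 probes had the same sign in this comparison, and 34 of them had an unadjusted p under 0.05. The arrays of this comparison were also part of the one that chose the 39 probes. The shared sign and these p-values are therefore not independent support. With the matched drugs and solvents Havcr1 on probe GE1278517 changed by -2.63 (adjusted p = 0.0937), Gpnmb by -0.78 and Col15a1 by -0.40 and -0.38. Myh9 changed by -0.09, against -0.43 with all drugs and vehicles. None of these passed after adjustment in the matched comparison. A p that misses the threshold does not show that the strain differences were alike.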

How the data were processed

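The authors deposited, per the file headers and labels, 1 CodeLink scan table per array with a normalised intensity per probe, background-subtracted and scaled to an array median of 1, and a quality flag; their software is not given in the sources used. The deposited intensity was the only unit used, and the authors' combined table held the same values (largest difference 0.0 over 1337935 values). No 2 of the 40 arrays were identical (780 pairs). Of the deposited values 6706 were missing and 9269 were at or below 0.

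Intensities were quantile normalised between arrays, values under 0.29 (percentile 1 of good-flagged values) were set to 0.29, and log2 was taken. Probes entered if both arrays of at least 1 group carried a good flag and every group had a value, which left 24993 of 33849. Using lmFit and eBayes of limma 3.58.1 (R 4.3.3), 1 mean was fitted for each of the 20 groups over all 40 arrays, with Benjamini-Hochberg adjustment over all tested probes and a threshold of 0.05. p-values measure the spread between these arrays. Where an array lacked a value the fit dropped it. The strain contrast within a drug is also the value within a scan session, apart from enalapril. Under hydralazine it is the mean over 2 sessions with 1 array of each strain. The main fit left the shift between these sessions in the spread. The 2 hydralazine arrays differed by a root mean square of 0.448 in WKY and 0.426 in SHRSP. Symbols came from the platform's probe table (16753 probes with 1 symbol, 165 with several, 16931 with none) and were updated through RefSeq (1 changed). Gene lists used the brightest tested probe of a gene. On simulated data with 50 changed probes per size among 24993, the averaged comparison recovered 72% at 0.3, 94% at 0.5 and 100% at 1. In every drug stood 0% of probes changed by 0.3, 16% by 0.5 and 62% by 1. For changes under drugs only, drugs minus vehicles recovered 24% at 0.3, 62% at 0.5 and 92% at 1. The simulated spread was independent and normal, without floor or session effects, and far fewer probes were changed than were called here. These shares therefore need not hold for the real arrays.

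Named genes were the 8 highest and 8 lowest standing ones with good flags on all 24 arrays, the 4 highest and 4 lowest whatever their flags, up to 4 called and 2 small members of each list, a panel of drug targets, the smallest p-values for variation between drugs and for drugs minus vehicles, and up to 6 genes for each pattern of probe agreement. Genes outside these rules, such as list members that differed between drugs and vehicles, were picked with their values in view. The comparison, its members and the lists were chosen with earlier results of these data known. Probe sequences were not used here. Figures were drawn with Matplotlib 3.10.9 in Python 3.11.15.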

Additional observations from a re-analysis of the deposited data

Results flagged for a closer look

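The following results are listed because a test of the difference between conditions passed after adjustment over all probes; the causes were not tested. Between drugs and vehicles the strain difference of Havcr1 changed by -2.88 (probe GE1278517) and -1.61 (probe GE13234), with changes elsewhere of -1.34 for Ddx24, -1.08 for Gpnmb, -0.91 for Spp1, -0.78 for Cd44 and -0.77 for Timp1, all on the log2 scale. The matrix genes changed by -0.83 for Col8a1, by -0.82 for Eln, by -0.58 and -0.63 for the probes of Col15a1 and by -0.44 for Tnc, and Ube2c by -0.49. Positive changes were 0.76 for Thrsp, 0.65 for Fzd9, 0.51 for Slc5a5 and 0.44 for RGD1559600. The size for Fzd9 depends on the floor. With the 3 drugs and 3 solvents that share scan sessions, Ddx24 changed by -1.64, with 1 WKY Solvent A array giving a value.

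Among the 6 drugs the strain difference varied for Fgd4 (adjusted p = 2.35e-09), Mmadhc (0.000435), Trap1 (0.00102), Fmo2 (0.00102), Cdh13 (0.00169) and Rnf40 (0.00289), all from limma's moderated F test. Fgd4 rested on the 2 SHRSP enalapril arrays and Cdh13 on 1 SHRSP carvedilol array. The Fgd4 call was lost in the authors' table without a floor. No group was tested for a single array apart from the others, since each group had 2 arrays.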

How the results depend on the processing

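No called gene result changed sign under any alternative run, whereas some uncalled values near 0, such as those of Car2 and Bsnd, and some list medians near 0 fell on either side of it. In all, 206 of 255 gene results kept their call under every one, which were 13 other settings and leaving out each of the 24 drug arrays (and each of the 16 vehicle arrays where vehicles entered). No paired analysis was possible because the labels carry no replicate numbers, and scan session served as a block instead. Leaving out 1 array moved the averaged calls between 5701 and 7244, the standing probes between 512 and 593 and the small probes between 15804 and 16514. With a good flag asked on all 40 arrays, which tests fewer probes, 329 stood and 10659 were small.

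The probes that varied between drugs, 157, numbered 69 in the authors' table without a floor, 272 with no filter on flags, 95 with good flags on all 40 arrays, 30 with only the 24 drug arrays, 72 without enalapril, 263 with session and slide series as a fixed block over 5 drugs, 394 with session alone as a block, 586 without hydralazine and 317 with a floor at percentile 5 (0.42). Leaving out 1 array gave 97 (WKY candesartan 1) to 356 (WKY enalapril 1), with 267 and 336 without WKY hydralazine 1 and 2 and 334 without SHRSP hydralazine 2. The 39 probes that differed between drugs and vehicles numbered 21 in the authors' table, 87 with no filter, 20 with good flags on all 40 arrays and 70 with session alone as a block. The higher share among them was 17.9%, against 4.76% in the authors' table. Leaving out 1 array gave 17 (WKY Solvent A 2) to 119 (SHRSP H2O 1), with 21 without SHRSP Solvent A 2, 24 without SHRSP Solvent B 1, 25 without SHRSP H2O 2, 62 without WKY enalapril 1, 68 without SHRSP amlodipine 1, 70 without SHRSP hydralazine 2 and 71 without WKY H2O 2.

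For the matched drugs and solvents, with 1 probe called, limma called 0 in the authors' table (927 at an unadjusted p under 0.05), 20 with no filter, 3 with the floor at percentile 5, and 2 each with good flags on all 40 arrays, with trend and robust eBayes, with session and series as a fixed or a random block, with session alone and without hydralazine. Leaving out 1 array gave 0 (SHRSP candesartan 2, with 957 at an unadjusted p under 0.05) to 14 (SHRSP chlorothiazide 1). The block with session alone, the floor at percentile 5, the omission of hydralazine and the omission of vehicle arrays were chosen after seeing the data. The causes of these changes were not tested. The number of arrays, 2 a group, and probes near the floor limit these counts.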
